A study of Mus musculus with 2 samples.

Results

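The genes described here are 5 of the 32285 genes counted: the ligand genes *Xcl1*, *Ccl3*, *Ccl4* and *Ccl5*, and *Xcr1*, the receptor of the *Xcl1* product. They were chosen by earlier results of these data, in which *Xcl1* was higher in PEP-WT barcodes of the CD4 T gate of run 1, so every difference between the genotypes in run 1 is a description and carries no test. The groups were PEP-WT, C57BL/6 mice with the wild type *Ptpn22* allele, and PEP-619WW, C57BL/6 mice in which CRISPR/Cas9 had replaced an arginine of PEP with tryptophan. PEP is the phosphatase that *Ptpn22* encodes. Mice of both groups were infected with LCMV-cl13, which is a lymphocytic choriomeningitis virus that sets up a chronic infection, and were taken at day 8. The study used mice of 6 to 12 weeks. The study's methods pooled the spleens of 4 to 5 mice of each genotype and sorted live CD45+ cells, so variation between mice is not visible, and no uninfected library was analysed here. Some labels of both samples name liver, a tumor and the human T cell line Jurkat, whereas the protocol text and the study's methods describe mouse spleen. The same protocol text also describes a peptide culture with brefeldin A, which the study's methods give for a staining assay, whereas their account of the sequenced cells names no culture step.

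Chemokines are small secreted proteins that direct the movement of leukocytes through receptors on the surface of the target cell. XCL1 is made by activated CD8 T cells and NK cells and acts on XCR1, which in mice is carried by the conventional dendritic cells (cDC) that cross-present antigen to CD8 T cells. CCL3, CCL4 and CCL5 attract T cells and myeloid cells, and effector T cells, NK cells and activated myeloid cells make them.

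On GRCm38 (GENCODE M21) the protein-coding genes *Ccl5* (ENSMUSG00000035042, chr11:83525778-83530518, minus strand), *Ccl3* (ENSMUSG00000000982, chr11:83647844-83649355, minus strand) and *Ccl4* (ENSMUSG00000018930, chr11:83662584-83664683, plus strand) lie near each other on chromosome 11. *Xcl1* (ENSMUSG00000026573, chr1:164931644-164935527, minus strand) and *Xcr1* (ENSMUSG00000060509, chr9:123852315-123862029, minus strand) lie apart from them. RefSeq promoter entries (GRCm38.p6) matched 3 of the 5 genes. The stretches before the starts of *Xcl1* (chr1:164935523-164935772, minus strand) and *Ccl3* (chr11:83649379-83649628, minus strand) are shown because these ligands had opposite patterns in the CD8 T gate described below. Each is 250 bases long and reads 5′ to 3′ towards the start, and capitals mark the matches.
Xcl1: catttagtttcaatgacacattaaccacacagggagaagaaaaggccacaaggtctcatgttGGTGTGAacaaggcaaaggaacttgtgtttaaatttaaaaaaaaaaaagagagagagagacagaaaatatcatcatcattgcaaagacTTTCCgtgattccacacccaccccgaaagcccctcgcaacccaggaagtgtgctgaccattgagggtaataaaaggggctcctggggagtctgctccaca
Ccl3: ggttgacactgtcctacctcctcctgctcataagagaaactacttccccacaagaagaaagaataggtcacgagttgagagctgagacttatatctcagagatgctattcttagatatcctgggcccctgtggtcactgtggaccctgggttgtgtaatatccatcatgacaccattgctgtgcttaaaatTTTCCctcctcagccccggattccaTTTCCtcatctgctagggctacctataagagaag
Letters searched on both strands were GGAAA (the core read by NFAT factors), GGTGTGA (a T-box half-site, the family of T-bet and Eomes), TATAAA and, for AP-1, TGANTCA, besides an outline of the NF-kB site. *Xcl1* held 1 match of GGTGTGA and 1 of GGAAA, and *Ccl3* held 2 of GGAAA. No 2 of these matches overlapped, and TATAAA, the AP-1 letters and the NF-kB outline had no match in the stretches shown. Of 32851 promoters of the same length, 55.6% held GGAAA, 3.33% GGTGTGA, 12.4% TATAAA, 6.75% TGANTCA and 45.8% the NF-kB outline. A match is a description of the letters only.

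Each genotype had 2 deposited sets of counts of unique molecular identifiers (UMIs), called run 1 and run 2, and they were not taken as replicates because no source used here says how they relate. In run 1 the PEP-WT library had 14821 barcodes and the PEP-619WW library 8576, and in run 2 they had 9539 and 11029. The barcode numbers of run 2 equal the cell numbers in the study's methods. Total UMIs were between 55504449 and 77916082 per library. Run 1 leads here because run 2 had few PEP-WT lymphocyte barcodes, and run 2 also had 256 PEP-WT and 27 PEP-619WW barcodes with at least 3 of 6 melanocyte genes, against 0 in run 1. Any 2 libraries shared between 19 and 49 cell barcode sequences. *Ptpn22* was at 76.7 UMIs per 1000000 UMIs (CPM) in PEP-WT and 94.7 in PEP-619WW in run 1, and at 19.4 and 67.2 in run 2. A count of the 3′ end does not show which allele was read.

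Barcodes were gated by their own UMIs, and the gates may overlap. Run 1 held 1439 PEP-WT and 953 PEP-619WW barcodes in the CD8 T gate (*Cd3e* and *Cd8b1*), 361 and 261 in the CD4 T gate (*Cd3e* and *Cd4*), 77 and 37 in the NK gate (*Ncr1* without *Cd3e*), 274 and 176 in a gate of *Flt3* with at least 10 *H2-Aa* UMIs, and 1600 and 1236 in a gate of at least 5 *Lyz2* UMIs. T cell markers were found in at least 99.6% of the barcodes of both T gates. The *Flt3* and *H2-Aa* gate went against its label of cDC in run 1: 39.4% of its barcodes had a marker of cDC in PEP-WT and 42.05% in PEP-619WW, whereas 94.5% and 96.6% had a B cell marker. It is therefore called by its genes. Its cDC markers, which include *Xcr1*, were at 153 CPM in PEP-WT and 97.8 in PEP-619WW. Its B cell markers were at 3404 and 4882, plasma cell markers at 3922 and 6127 and neutrophil markers at 2427 and 554. B cell markers were also found in 72.3% to 83.5% of T gate barcodes. Monocyte or macrophage markers were found in the CD8 T gate in 92.1% (PEP-WT) and 96.5% (PEP-619WW) of barcodes, and neutrophil markers in 35.1% and 67.6%. A UMI of any of the 7 monocyte or macrophage genes counted. Among them is *Ccr2*, which the study also names for effector CD8 T cells, so that share does not measure myeloid RNA alone. Erythroid markers were at 1096 and 228 CPM (defined below) in the CD8 T gate and at 1519.8 and 45.1 in the CD4 T gate. The NK gate carried NK markers at 17558 CPM in PEP-WT and 17495 in PEP-619WW, but neutrophil markers at 1152 and 14983 and erythroid markers at 7545 and 182. The *Lyz2* gate carried neutrophil markers at 25044.5 CPM in PEP-WT and 39442.8 in PEP-619WW, in 66.3% and 88.7% of barcodes. Its monocyte or macrophage markers were at 3913 and 3698 CPM and its erythroid markers at 1329 and 556. The part of other cells in the results below was not tested. The level of a gene is given in CPM, UMIs per 1000000 UMIs of the gate, with an exact 95% Poisson interval, and a ratio between libraries as log2 of PEP-619WW over PEP-WT with an exact conditional 95% interval. Intervals cover counting error only, since there is 1 library per genotype in each run. They do not cover the spread of UMIs between barcodes.

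*Xcl1* UMIs lay mostly in lymphocytes. In run 1 PEP-WT had 3117 *Xcl1* UMIs, of which 74.2% fell in barcodes of the CD8 T, CD4 T or NK gates, and PEP-619WW had 561, of which 91.6% did. In PEP-WT the level was 483 CPM in the NK gate (interval 413 to 560.0), 152 in the CD8 T gate (146 to 159), 90.4 in the CD4 T gate (80.5 to 101), 26.4 in the *Lyz2* gate (23.9 to 29.0) and 25.5 in the *Flt3* and *H2-Aa* gate (21.1 to 30.4). The *Lyz2* gate and the *Flt3* and *H2-Aa* gate do not differ beyond their intervals. In PEP-619WW the level was 301 CPM in the NK gate (232 to 386), 35.4 in the CD8 T gate (32.2 to 38.9), 8.95 in the CD4 T gate (5.79 to 13.2), 5.68 in the *Lyz2* gate (4.47 to 7.13) and 1.39 in the *Flt3* and *H2-Aa* gate (0.452 to 3.25). The order of the gates was thus the same, with overlapping intervals between the CD4 T and *Lyz2* gates. The *Xcl1* UMIs of the last 2 gates lay almost wholly in barcodes that also met another gate. Without such barcodes the *Flt3* and *H2-Aa* gate kept 0 of 121 UMIs in PEP-WT and 0 of 5 in PEP-619WW, and the *Lyz2* gate kept 18 of 411 and 5 of 75, and 0.770% and 0.891% of all *Xcl1* UMIs lay in these gates outside the T and NK gates. The barcodes that met the *Flt3* and *H2-Aa* gate alone serve as background, and their 0 UMIs of *Xcl1* allow up to 1.06 and 1.37 CPM.

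**Figure D1:**
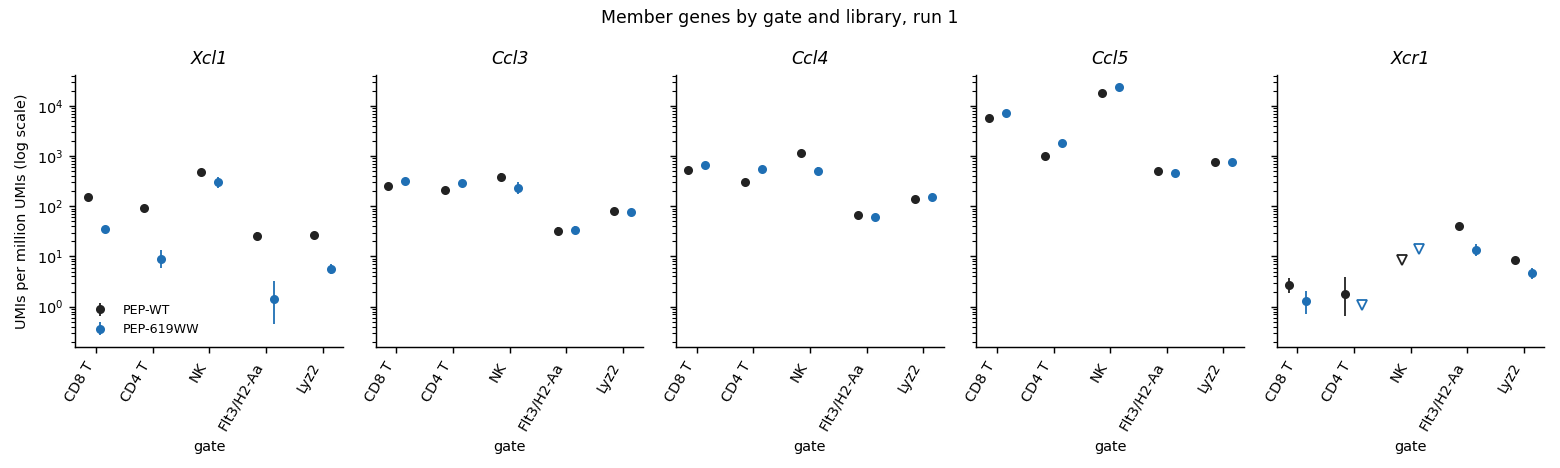
Level of each gene (UMIs per 1000000 UMIs, log scale) by gate in the PEP-WT (black) and PEP-619WW (blue) libraries of run 1, with exact 95% Poisson intervals as bars; open triangles stand at 3 UMIs where no UMI was counted. *Xcl1* was lower in PEP-619WW in the CD8 T gate (152 against 35.4), the CD4 T gate and the NK gate, and in the *Flt3*/*H2-Aa* and *Lyz2* gates, whose *Xcl1* lay almost wholly in barcodes of other gates, while the *Ccl5* points of those gates lie close together.

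In the CD8 T gate, *Xcl1* had 2110 UMIs in 170 PEP-WT barcodes and 445 UMIs in 56 PEP-619WW barcodes, a log2 ratio of -2.10 (-2.25 to -1.95). The share of barcodes with an *Xcl1* UMI was 11.8% (10.2 to 13.6%) in PEP-WT and 5.88% (4.47 to 7.56%) in PEP-619WW, although the median depth was 6038 and 8660 UMIs. With each barcode thinned to 1000 UMIs, the shares were 4.24% (3.26 to 5.42%) and 1.49% (0.815 to 2.48%), against 0 of 191 and 0 of 128 barcodes that met the *Flt3* and *H2-Aa* gate alone. A few barcodes held most of the UMIs. Counts per PEP-WT barcode with *Xcl1* had a lowest value of 1, a median of 3 and a highest of 328, and the 36 barcodes with 10 or more held 82.2% of the UMIs. In PEP-619WW the lowest was 1, the median 4 and the highest 51, and 14 barcodes with 10 or more held 72.4%. These medians are not at like depth, since the positive barcodes had median totals of 10251.5 UMIs in PEP-WT and 18503.5 in PEP-619WW. PEP-WT had more positive barcodes and a longer upper end. Without the barcode with the most *Xcl1* in each library the log2 ratio was -2.04. Of the 5 PEP-WT barcodes with the most *Xcl1*, 2 also held 96 and 92 *Lyz2* UMIs, the gene of lysozyme in myeloid cells. In the CD8 T gate without barcodes that met another gate, the level of *Xcl1* was 151 CPM in PEP-WT and 41.96 in PEP-619WW.

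Of the 5 genes, all measured with at least 50 UMIs in the CD8 T gate, 2 (*Xcl1*, and *Xcr1* with 53 UMIs in all) were at least 2-fold lower in PEP-619WW, beside 1.49% of all 10838 genes measured, and 0 were at least 2-fold higher, beside 0.877%. In the CD4 T gate 1 of 4 measured genes, *Xcl1*, was at least 2-fold lower (1.34% of all genes) and 0 higher (1.04%). In the NK gate 1 of 4, *Ccl4*, was lower (4.36%) and 0 higher (2.62%). In the *Flt3* and *H2-Aa* gate 2 of 5, *Xcl1* and *Xcr1*, were lower (1.42%) and 0 higher (1.14%), and in the *Lyz2* gate 1 of 5, *Xcl1*, was lower (1.28%) and 0 higher (1.11%). The *Xcl1* UMIs behind the last 2 gates are almost wholly those of barcodes that met another gate. Of the *Xcr1* UMIs in the CD8 T gate, 7 of 37 in PEP-WT and 5 of 16 in PEP-619WW lay in barcodes that met no other gate. Without barcodes in another gate the log2 ratio of *Xcr1* there, -1.07, was -0.40 (-2.39 to 1.48). Since these genes were chosen by such differences, nothing is read from the counts.

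*Xcl1* in the CD4 T gate was the difference by which the genes were chosen, with 299 UMIs in 17 PEP-WT barcodes and 25 UMIs in 5 PEP-619WW barcodes and a log2 ratio of -3.34 (-3.99 to -2.75). Most of these UMIs did not lie in barcodes of CD4 T cells alone. Of the 299 PEP-WT UMIs, 270 lay in 5 barcodes that also carried *Cd8b1* and so met the CD8 T gate, among them 1 barcode with 157 *Xcl1* UMIs. Of the 25 PEP-619WW UMIs, 19 lay in 3 such barcodes. Barcodes that met both T gates were 57 of 361 in PEP-WT and 45 of 261 in PEP-619WW. Without them and without CD4 T barcodes that carried *Ncr1* the level was 11.96 CPM in PEP-WT (8.01 to 17.2), from 29 UMIs in 12 barcodes, and 3.32 in PEP-619WW (1.22 to 7.22), from 6 UMIs in 2 barcodes. That is a log2 ratio of -1.85 (-3.41 to -0.56). Without the same barcodes the log2 ratios of *Ccl3*, *Ccl4* and *Ccl5* were 0.54, 1.05 and 1.06. Leaving these barcodes out was chosen after seeing the data.

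**Figure D2:**
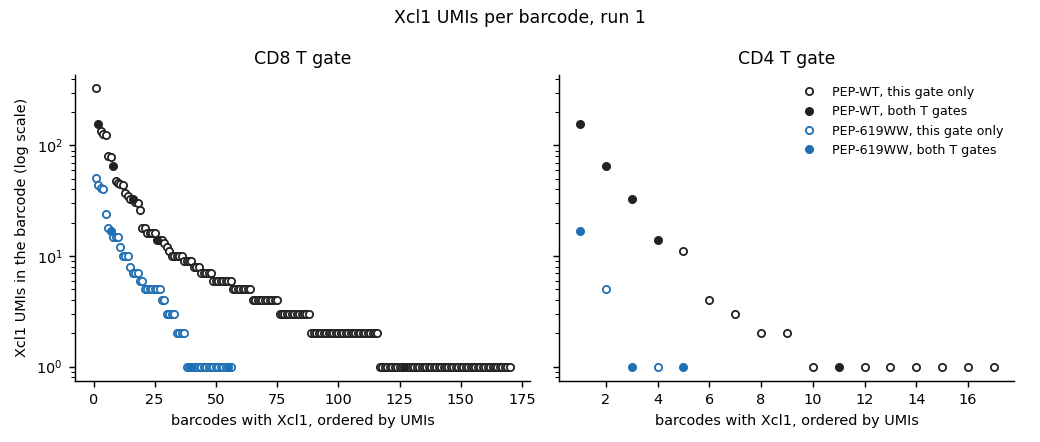
*Xcl1* UMIs in each barcode of run 1 that had any (log scale), ordered from most to fewest, in the CD8 T gate (left) and the CD4 T gate (right); filled points are barcodes that met both T gates, open points met 1. The 4 highest PEP-WT barcodes of the CD4 T gate, up to 157 UMIs, are filled.

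Within the CD8 T gate of run 1 *Xcl1* had the opposite pattern to the CC chemokines with respect to *Gzmb*, the gene of the cytotoxic protease granzyme B. *Xcl1* was at 105 CPM in PEP-WT barcodes with a *Gzmb* UMI and 293 without (275 to 312), and at 26.7 and 119 in PEP-619WW. *Ccl4* was at 692 with *Gzmb* and 69.3 without in PEP-WT, and at 725 and 42.1 in PEP-619WW. *Ccl3* was at 316 and 42.3 in PEP-WT and at 341 and 35.4 in PEP-619WW. *Ccl5* was at 7376 and 973 in PEP-WT and at 7612 and 1847 in PEP-619WW. Both libraries of run 1 thus had *Xcl1* higher, and the CC ligands lower, where *Gzmb* was not detected. The PEP-WT barcodes ranked 3 and 5 by *Xcl1*, with 135 and 125 *Xcl1* UMIs, had 0 *Gzmb* UMIs and 96 and 92 *Lyz2* UMIs. Their part in the PEP-WT level without *Gzmb* was not tested. Barcodes with *Gzmb* numbered 952 of 1439 for PEP-WT and 826 of 953 for PEP-619WW, and in both parts *Xcl1* was lower in PEP-619WW. The levels of *Ccl3* and *Ccl4* were higher in PEP-619WW with *Gzmb* and lower without it, and *Ccl5* was higher in both parts.

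Genes of progenitor and chronically stimulated CD8 T cells divided the gate further. With *Slamf6*, the gene of a surface receptor kept by progenitor exhausted cells, it was at 220.2 CPM against 62.4 without in PEP-WT, and at 43.1 against 25.4 in PEP-619WW. With *Tox*, a transcription factor of exhausted cells, it was at 231 against 68.2 in PEP-WT and 56.1 against 16.9 in PEP-619WW. With *Pdcd1*, the gene of the inhibitory receptor PD-1, it was at 229 against 76.2 in PEP-WT, while in PEP-619WW the intervals overlapped (34.1 with, 29.6 to 39.0, and 36.7 without, 32.2 to 41.7). *Tcf7*, the gene of the transcription factor TCF-1, gave 162 with and 148 without in PEP-WT, with overlapping intervals, and 62.5 against 29.9 in PEP-619WW. The level of *Ccl5* was lower with each of these 4 genes in both libraries of run 1, for example 3385 CPM with and 8910 without *Slamf6* in PEP-WT. Barcodes with *Slamf6* were deeper, with a median of 7887 UMIs with *Slamf6* and 4723 without in PEP-WT. With every barcode thinned to 1000 UMIs, *Xcl1* was found in 7.42% of barcodes with *Slamf6* and 1.74% without in PEP-WT, and in PEP-619WW 1.81% and 1.26%.

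*Ccl3* and *Ccl4* followed *Ifng*, the gene of interferon gamma. In the CD8 T gate *Ccl3* was at 441 CPM with *Ifng* and 51.0 without in PEP-WT, and at 459 and 70.8 in PEP-619WW. *Ccl4* was at 915 and 151 in PEP-WT and at 988 and 122 in PEP-619WW. In the CD4 T gate *Ccl3* was at 532 with *Ifng* and 11.3 without in PEP-WT, and at 594 and 26.8 in PEP-619WW. In that gate 10 barcodes held 83.0% of the *Ccl3* UMIs in PEP-WT and 83.2% in PEP-619WW. The level of *Ccl5* in the CD8 T gate was lower with *Ifng*, at 5483 with and 6065 without in PEP-WT and at 6642 and 7769 in PEP-619WW. The thinned share of barcodes with *Ccl5* went the other way, with 83.0% of those with *Ifng* and 55.6% of those without in PEP-WT, so no order is read from it. By *Mki67*, a gene of dividing cells, *Ccl5* was at 3192 CPM with and 10281 without in PEP-WT and at 4077 and 13217 in PEP-619WW, while its thinned shares in PEP-WT were 70.7% with and 62.5% without.

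Some of these patterns within the CD8 T gate did not hold in run 2, whose PEP-WT parts are small. By *Tox*, *Xcl1* in PEP-WT was at 183 CPM with (13 barcodes, 127 to 254) and 863 without (15 barcodes, 678 to 1081), the reverse of run 1, and in PEP-619WW at 205 with and 70.1 without, as in run 1. By *Pdcd1*, *Xcl1* in PEP-619WW was at 187 with and 96.9 without, where the run 1 intervals overlapped, and in PEP-WT at 359.5 with (280.3 to 454) and 477 without (341 to 649.8), with overlapping intervals, where in run 1 it was higher with *Pdcd1*. *Ccl5* in PEP-WT was higher with *Pdcd1* (3446 and 513) and with *Tox* (2808 and 2024), and lower with *Gzmb* (2333 and 3105), each the reverse of run 1. In PEP-619WW of run 2 *Ccl5* was lower with *Tox* (2032 and 3348) and *Pdcd1* (2125 and 3173) and higher with *Gzmb* (3087 and 2161), as in run 1, while *Ccl3* by *Gzmb* had overlapping intervals (249.8 and 264).

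**Figure D3:**
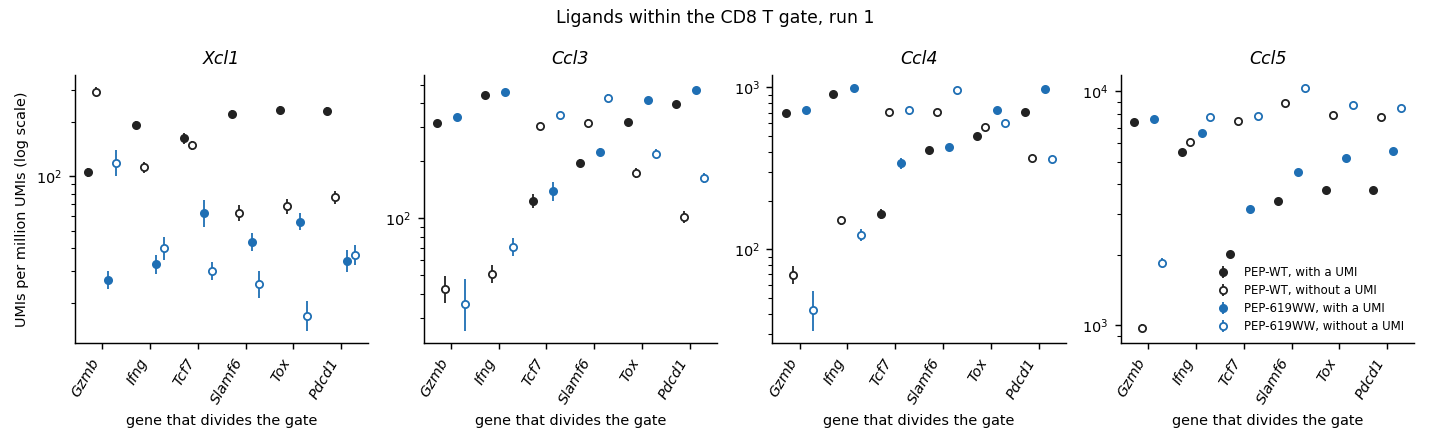
Level of the 4 ligand genes (UMIs per 1000000 UMIs, log scale, own scale per panel) in barcodes of the CD8 T gate of run 1 with (filled) and without (open) a UMI of the gene on the horizontal axis, in PEP-WT (black) and PEP-619WW (blue), with exact 95% Poisson intervals. Open *Xcl1* points lie above filled ones for *Gzmb* (293 against 105 in PEP-WT), and the reverse holds for *Ccl3*, *Ccl4* and *Ccl5*.

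Between the libraries, the CC ligands were higher in the CD8 T gate of PEP-619WW in run 1. *Ccl3* in the CD8 T gate had 3437 UMIs in PEP-WT and 3924 in PEP-619WW, or 248 and 312 CPM, a log2 ratio of 0.33 (0.27 to 0.40). *Ccl4* had 7436 and 8301 UMIs, or 536 and 661 CPM, a ratio of 0.30 (0.26 to 0.35). *Ccl5* had 80072 and 88812 UMIs, or 5771 and 7068 CPM, a ratio of 0.29 (0.28 to 0.31). All 3 were thus higher by a similar factor of 1.22 to 1.26 in the whole gate as summed. Thinned to 1000 UMIs, the log2 ratios of *Ccl3*, *Ccl4* and *Ccl5* were 0.51, 0.26 and 0.14. The difference did not hold in both parts by *Gzmb* given above. Among barcodes with *Gzmb* the levels of the libraries lay closer together, and without it *Ccl3* and *Ccl4* were lower in PEP-619WW. The part of the unlike shares of *Gzmb* barcodes in these ratios was not tested. In the CD4 T gate the ratios were 0.46 for *Ccl3* (212 and 290.4 CPM), 0.87 for *Ccl4* (302 and 552) and 0.82 for *Ccl5* (1015 and 1794). These depended on the gate: with stricter gates that asked for at least 2 UMIs of each gate gene, they were -0.10 (-0.34 to 0.15), 0.064 (-0.13 to 0.26) and 0.23 (0.13 to 0.33), from 98 PEP-WT and 125 PEP-619WW barcodes. Thinned to 1000 UMIs, *Ccl3* there was at 0.18 (-0.34 to 0.69). The share of CD8 T barcodes with *Ccl5*, thinned to 1000 UMIs, was 65.6% in PEP-WT (63.0 to 68.0%) and 84.6% in PEP-619WW (82.1 to 86.9%), and in the CD4 T gate 15.6% and 30.7%. Barcodes that met the *Flt3* and *H2-Aa* gate alone had *Ccl5* in 9 of 191 and 4 of 128 barcodes at that depth, or 4.71% and 3.13%, and in 16.7% and 27.9% as deposited, at median depths of 11122.5 and 12864 UMIs. Their levels were 83.9 and 78.3 CPM for *Ccl5*, 2.83 and 3.19 for *Ccl3* and 14.9 and 20.95 for *Ccl4*. All 3 levels were thus far below those of the T gates in both libraries.

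In the NK gate, *Xcl1* had 173 UMIs in 22 of 77 PEP-WT barcodes and 63 in 9 of 37 PEP-619WW barcodes, a log2 ratio of -0.68 (-1.12 to -0.26). With equal weight for every barcode it was -0.11, and with thinned barcodes -0.10. The shares of barcodes with *Xcl1* were 28.6% (18.8 to 40.0%) and 24.3% (11.8 to 41.2%), and a difference in share was not detectable with so few barcodes. *Ccl3* was at 390.5 and 234 CPM, a ratio of -0.74 (-1.24 to -0.26), and *Ccl4* at 1132 and 502, a ratio of -1.17 (-1.496 to -0.86). One PEP-WT barcode held 128 of the 406 *Ccl4* UMIs, and without the top barcode of each library the ratio was -0.76. The shares of barcodes with these genes were not lower in PEP-619WW. For *Ccl3* they were 40.3% and 43.2%, and thinned 19.5% and 24.3%. For *Ccl4* they were 49.4% and 62.2%, and thinned 31.2% and 32.4%, and all these intervals overlapped between the libraries. *Ccl5* was at 18272 and 23799.6, a ratio of 0.38 (0.33 to 0.43). *Xcr1* had 0 UMIs in the NK gate, where 3 UMIs would be a level of 8.37 CPM in PEP-WT and 14.4 in PEP-619WW. By maturation, *Xcl1* was at 1145 CPM in PEP-WT barcodes with *Cd27*, a receptor of less mature NK cells, and 189 without, and at 536 and 186 in PEP-619WW, while *Ccl5* was at 5973 with and 23715 without *Cd27* in PEP-WT. These parts are small, with 11 and 9 barcodes that had *Cd27*.

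Some of the ligands were also detected together in run 1. In the CD8 T gate of PEP-WT, thinned to 1000 UMIs, 60.8% of the barcodes with *Ccl3* also had *Ccl4*, against 10.6% of those without *Ccl3*, and in PEP-619WW 59.8% against 13.7%. *Ccl5* was found in 90.2% of the *Ccl3* barcodes and 62.6% of the others in PEP-WT, and in 91.3% and 83.6% in PEP-619WW. Thinned *Xcl1* barcodes had *Ccl5* less often in PEP-WT, but *Ccl3* and *Ccl4* more often in both libraries. Of 61 thinned PEP-WT barcodes with *Xcl1*, 34.4% had *Ccl5*, against 66.9% of those without. For *Ccl4* the shares were 32.8% against 15.2%, and for *Ccl3* 16.4% against 10.4%. In PEP-619WW only 14 thinned barcodes had *Xcl1*, of which 85.7% had *Ccl5* against 84.6% of the others. Of these 14, 57.1% had *Ccl4* against 19.4%, and 50% had *Ccl3* against 12.9%. Without thinning the *Ccl4* shares lay closer together, at 40% against 36.6% in PEP-WT and 50% against 48.7% in PEP-619WW. Without thinning, 83.9% of the 56 PEP-619WW barcodes with *Xcl1* had *Ccl5*, against 94.98% of the others. In run 2 the thinned PEP-619WW shares were 40.7% of 27 against 57.3% for *Ccl5*, and 0% against 6.09% for *Ccl3*. Without thinning they were 75.5% of 53 against 72.4% for *Ccl5* and 24.5% against 13.8% for *Ccl3*, so no order is read from run 2. A difference between the libraries in this respect was not tested. In run 2 *Ccl3* and *Ccl4* were again found together in PEP-619WW, with *Ccl4* in 68.2% of 22 thinned *Ccl3* barcodes against 9.56% of the others, whereas *Ccl5* was in 36.4% of the *Ccl3* barcodes against 57.4%. Without thinning, *Ccl5* was in 81.7% of 60 *Ccl3* barcodes against 71.3% there, so no order is read from it.

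*Xcr1* lay mostly in the *Flt3* and *H2-Aa* gate and the *Lyz2* gate. In run 1, 63.0% of its 330 PEP-WT UMIs and 51.6% of its 124 PEP-619WW UMIs were in barcodes of these gates that met no T or NK gate. In the *Flt3* and *H2-Aa* gate it had 195 UMIs in 34 PEP-WT barcodes (41.0 CPM, 35.5 to 47.2) and 49 UMIs in 12 PEP-619WW barcodes (13.7, 10.1 to 18.0), a log2 ratio of -1.59 (-2.07 to -1.13). Thinned to 1000 UMIs, 9 of 273 and 4 of 175 barcodes had *Xcr1*, or 3.30% (1.52 to 6.17%) and 2.29% (0.626 to 5.75%), with a log2 ratio of -1.06 (-3.13 to 0.64), and no difference was detectable at that depth. The next level was that of the *Lyz2* gate, at 8.40 and 4.62 CPM, followed by the CD8 T gate at 2.67 and 1.27. Most of these UMIs lay in barcodes that met another gate. Without such barcodes the *Lyz2* gate had 2.51 and 2.46 CPM, from 27 and 24 UMIs. The CD8 T gate then had 0.713 and 0.542, from 7 and 5 UMIs. *Xcr1* in the CD4 T gate had 6 UMIs in PEP-WT and was found in 0 of 261 PEP-619WW barcodes, which allows a share of barcodes with a UMI of up to 1.15% and sets no limit on cells that express the gene.

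The *Xcr1* UMIs of the *Flt3* and *H2-Aa* gate lay with *Clec9a*, the gene of a dead-cell receptor of cross-presenting cDC. With a *Clec9a* UMI the level of *Xcr1* was 171 CPM in PEP-WT (46 barcodes, 146 to 199) and 96.6 in PEP-619WW (26 barcodes, 70.7 to 129), and without it 8.18 and 0.964. With *Cd8a*, which the same cDC carry in the spleen, it was 118 and 30.1, and without 6.99 and 8.95. With *Ccr7*, a gene of migrating dendritic cells, it was 1.36 in PEP-WT, from 1 UMI, and 0 in PEP-619WW, and without 48.3 and 15.9. The level of *Xcr1* was thus lower in PEP-619WW also among *Clec9a* barcodes, with counting intervals that did not overlap. Those intervals do not cover the spread between barcodes. In the whole gate the 10 barcodes with the most *Xcr1* held 62.6% of its UMIs in PEP-WT and 95.9% in PEP-619WW. Among the 192 PEP-WT and 129 PEP-619WW barcodes that met no other gate, it was at 35.4 and 5.01 CPM, from 100 and 11 UMIs.

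**Figure D4:**
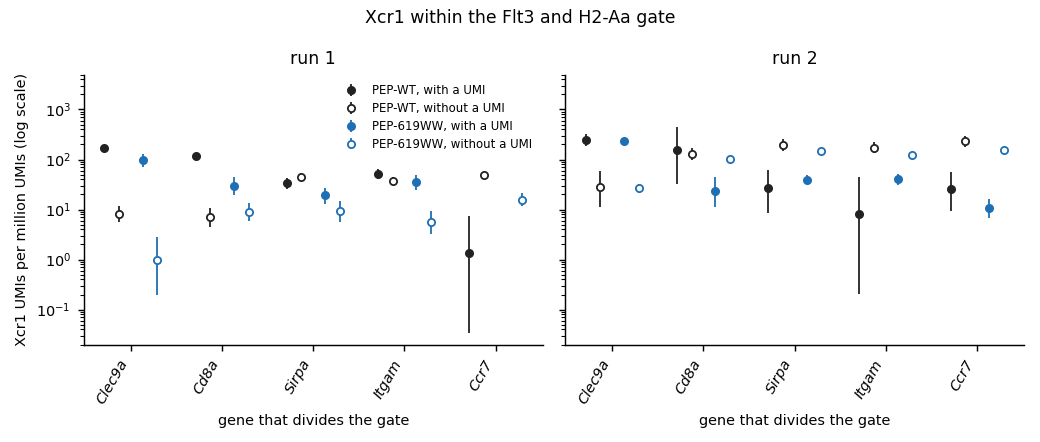
Level of *Xcr1* (UMIs per 1000000 UMIs, log scale) in barcodes of the *Flt3* and *H2-Aa* gate with (filled) and without (open) a UMI of the gene on the horizontal axis, in run 1 (left) and run 2 (right), with exact 95% Poisson intervals; parts with no *Xcr1* UMI have no point. With *Clec9a* the levels were 171 and 96.6 in run 1 and 244 and 234 in run 2.

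Run 2 had the same direction as run 1 for some of these differences and the opposite for others. *Xcl1* in the CD8 T gate was at 395 CPM in PEP-WT (28 barcodes, 110 UMIs) and 143 in PEP-619WW (394 barcodes, 442 UMIs), a log2 ratio of -1.47 (-1.77 to -1.15). The PEP-WT UMIs lay in 7 barcodes. The shares of barcodes with *Xcl1*, 25.0% (10.7 to 44.9%) and 13.5% (10.2 to 17.2%), had overlapping intervals. The CD4 T gate had *Xcl1* at 36.7 in PEP-WT, from 6 UMIs in 1 of 12 barcodes that also met the CD8 T gate, and at 22.0 in PEP-619WW, from 92 UMIs in 16 of 438, a ratio of -0.74 (-1.92 to 0.74). *Ccl3* in the CD8 T gate was at 829 and 257 CPM (-1.69) and *Ccl4* at 1673 and 569 (-1.56), the opposite direction to run 1, and *Ccl5* at 2563 and 2639 (0.04). The NK gate of run 2 had 2 PEP-WT barcodes, so its ratios rest on those. Its 466 PEP-619WW barcodes had *Xcl1* at 989 CPM (947 to 1032), found in 50.9% of them. In those, *Xcl1* was at 1458 without *Itgam*, an integrin gene of mature NK cells, and 379 with it, and 1 barcode without either *Itgam* or *Cd27* held 570 of the 2112 UMIs. Without that barcode, an alternative chosen after seeing the data, *Xcl1* was at 999 without *Itgam* and 379 with it, and at 890.4 with *Cd27* and 639 without, which is the direction of run 1. With that barcode the level without *Cd27* was 1041. *Xcr1* in the *Flt3* and *H2-Aa* gate, where a cDC marker was present in 83.3% (PEP-WT) and 91.2% (PEP-619WW) of barcodes, was at 131 in PEP-WT (48 barcodes) and 94.8 in PEP-619WW (464 barcodes), a ratio of -0.46. Among *Clec9a* barcodes it was at 244 and 234 CPM, with overlapping intervals.

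**Figure D5:**
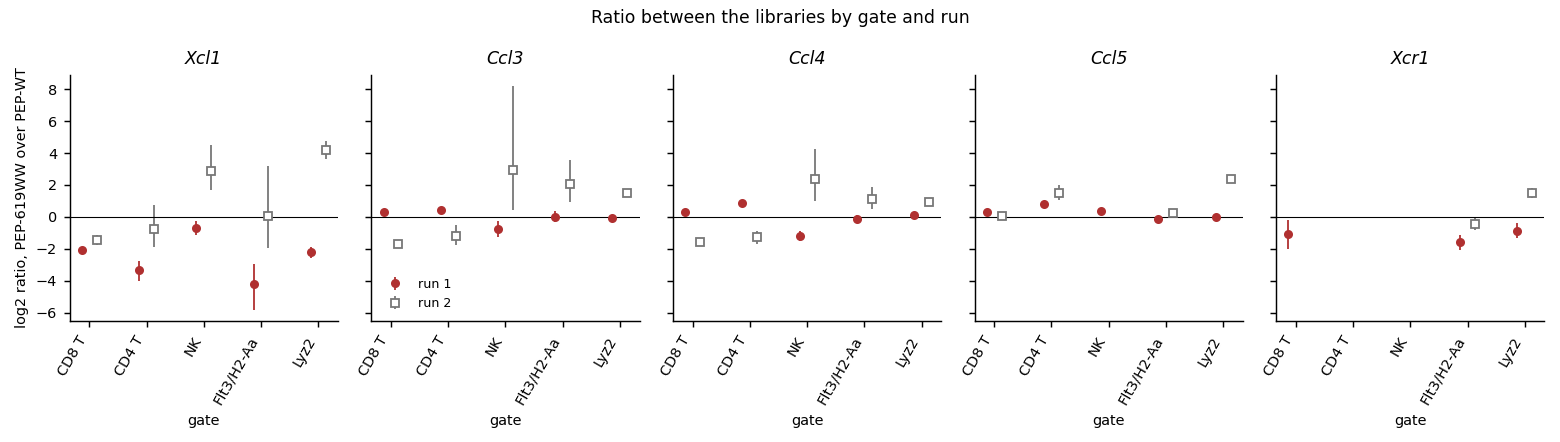
Log2 ratio of PEP-619WW over PEP-WT for each gene by gate in run 1 (red points) and run 2 (open grey squares), with exact conditional 95% intervals as bars; gates where a library had 0 UMIs have no point. *Xcl1* lies below 0 in the CD8 T, CD4 T and NK gates of run 1, in the other 2 gates, which share its barcodes, and in the T gates of run 2 (-1.47, and -0.74 with an interval that includes 0), and *Ccl3* and *Ccl4* change sign between the runs in both T gates.

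Barcodes outside the T and NK gates also held CC ligand UMIs. In run 1, 12.7% of the *Ccl3* UMIs in PEP-WT and 9.71% in PEP-619WW lay in the *Flt3* and *H2-Aa* or *Lyz2* gates outside the T and NK gates, and in run 2 44.2% and 37.6%, with a further 54.4% and 57.4% in no gate. In the whole *Lyz2* gate of run 1, *Ccl3* was at 80.9 and 78.4 CPM, *Ccl4* at 141 and 153 and *Ccl5* at 778 and 777. These levels include barcodes that also met a T or NK gate. Without barcodes that met another gate they were 64.6 and 50.3 for *Ccl3*, 88.3 and 76.3 for *Ccl4* and 296 and 349 for *Ccl5*. The values of *Ccl5* depended on the processing: its log2 ratio was 0.37 (0.24 to 0.49) thinned, 0.28 with equal weight per barcode and 0.24 (0.17 to 0.31) without barcodes in another gate, and the thinned shares were 12.8% (11.2 to 14.5%) and 20.6% (18.3 to 23.0%). In run 2 the same gate had *Ccl3* at 118 and 329, *Ccl4* at 338 and 658 and *Ccl5* at 37.8 and 194. The log2 ratios of *Ccl3* and *Ccl5* in run 1, -0.05 (-0.17 to 0.07) and -0.0018 (-0.04 to 0.04), had intervals that included 0, whereas those of run 2 were 1.48 and 2.36. Of T cell markers, the *Lyz2* gate of run 2 had 10.3 CPM in PEP-WT and 223 in PEP-619WW.

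Related genes came from lists and are counted in run 1 among those with at least 50 UMIs in a gate, beside shares of all genes past 2-fold lower and higher of 1.49% and 0.877% in the CD8 T gate, 1.34% and 1.04% in the CD4 T gate, 4.36% and 2.62% in the NK gate, 1.42% and 1.14% in the *Flt3* and *H2-Aa* gate and 1.28% and 1.11% in the *Lyz2* gate. Over the 5 gates 32 list genes were past 2-fold, each counted once per gate. Of these, 26 had a ratio in run 2, and 16 kept their sign there and 10 did not, among them 1 of 5 in the CD8 T gate, 4 of 6 in the CD4 T gate and 3 of 5 in the *Lyz2* gate. Of 13 genes that respond to the T cell receptor, 0 were past 2-fold in the CD8 T gate, with a median log2 ratio of -0.06 beside -0.01 for all genes. In the CD4 T gate 1 of the 13, *Tnfrsf9* (the costimulatory receptor 4-1BB), was lower in PEP-619WW, at 88.9 and 43.0 CPM. Of the effector molecules, 1 of 11 measured was past 2-fold in the CD8 T gate, *Gzma* (granzyme A), at 758 CPM in PEP-WT and 369.7 in PEP-619WW, and 1 of 11 in the CD4 T gate, *Csf2* (the growth factor GM-CSF), at 12.7 and 47.3. *Gzma* in the CD8 T gate had a log2 ratio of -1.04 in run 1 and 5.32 in run 2. *Gzma* was also lower in the *Flt3* and *H2-Aa* gate (73.5 and 8.64) and in the *Lyz2* gate (128 and 36.8, a log2 ratio of -1.80, against 7.91 in run 2). The *Flt3* and *H2-Aa* gate further had *Tnf* lower (13.3 and 4.46) and *Ifng* higher (10.1 and 22.8), so 3 of 8 effector genes measured were past 2-fold there, and in the NK gate 0 of 6 were. Of the T cell receptor response, *Fos* was higher in the NK gate (78.1 and 517), beside the neutrophil markers given above. *Nr4a2* was lower (8.42 and 3.06) and *Irf4*, a transcription factor, higher (33.3 and 67.1) in the *Flt3* and *H2-Aa* gate. *Tnfrsf4*, the costimulatory receptor OX40, was lower in the *Lyz2* gate (19.8 and 7.50, a log2 ratio of -1.40, against 4.41 in run 2).

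Of 14 other chemokine genes, 11 were measured in the CD8 T gate. *Ccl1* (9.66 and 3.10 CPM) and the neutrophil attractant gene *Cxcl2* (23.0 and 10.7) were lower in PEP-619WW, and *Ccl17* (0.432 and 6.76) and *Ccl24* (6.99 and 17.0) were higher. *Ccl1* was also lower in the CD4 T gate (19.1 and 9.31), and *Ccl2* (7.26 and 16.5), *Ccl24* (4.23 and 42.3) and *Cxcl2* (6.65 and 22.9) were higher. In run 2 the log2 ratios in the CD4 T gate were 3.34 for *Ccl1*, -0.42 for *Ccl2* and -2.58 for *Cxcl2*, opposite to run 1, and 1.49 for *Ccl24*. In the NK gate *Ccl6* (30.7 and 536) and *Cxcl2* (11.2 and 354) were higher, beside the neutrophil markers given above. In the *Flt3* and *H2-Aa* gate 3 of 8 measured were past 2-fold: *Cxcl10*, an interferon-induced attractant of T cells, at 143 and 33.2 (a log2 ratio of -2.10, against 1.63 in run 2), *Ccl2* at 8.42 and 3.62, and *Ccl17* at 3.58 and 15.6. In the *Lyz2* gate *Ccl8* (2.12 and 4.62, a log2 ratio of 1.13, against -3.75 in run 2), *Ccl17* (0.834 and 7.58) and *Ccl24* (12.6 and 39.9) were higher, beside the neutrophil markers of that gate given above. Of 12 genes of the XCR1 type of cDC, 11 were measured in the *Flt3* and *H2-Aa* gate, with a median log2 ratio of -0.59 beside -0.06 for all genes. Of these, 2 were at least 2-fold lower: *Itgae* (CD103) at 14.1 and 4.46 CPM and *Cd8a* at 54.3 and 22.8. The CD8 T gate also carried *Cd8a*, at 251 and 238 CPM, whereas *Itgae* was at 3.17 and 2.23 there. Barcodes that met both gates numbered 30 in PEP-WT and 16 in PEP-619WW. T cell markers in the *Flt3* and *H2-Aa* gate were at 402 and 280 CPM. The part of T cell RNA in the lower *Cd8a* was not tested. In run 2 the median of the 11 was 0.02, with 5 below 0 and 6 above, and *Cd8a* was at 1.63 against -1.25 in run 1. Of 8 genes of other cDC, 5 were measured there, with a median of 0.42, and *Irf4*, which is on this list too, was past 2-fold higher. Elsewhere 1 of 11 genes of the XCR1 type was lower in the CD8 T gate, *Clec9a* (3.96 and 1.27), 1 of 7 was lower in the CD4 T gate, *Batf3* (12.7 and 4.30), and 0 of 11 were past 2-fold in the *Lyz2* gate. Of the other cDC list, *Itgam*, which neutrophils also express, was higher in the NK gate (148 and 297), beside the neutrophil markers of the NK gate, and 0 were past 2-fold in the T gates and the *Lyz2* gate.

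Over the 10 profiles of run 1 (5 gates in both libraries), the genes with the pattern most like a member were found by Pearson correlation of log2 (CPM + 1) among 10418 genes. The profiles share libraries and barcodes, so the values are descriptions. For *Xcl1* they were *Tpm4* (r = 0.957), *Pdcl3*, *Trappc4*, *Ttc33* and *Eomes* (0.924). For *Ccl3* they were *Ccl4* (0.985), *Elk3*, *Leprotl1*, *Fam189b* and *Rinl* (0.971), and for *Ccl4* they were *Ccl3*, *Gm29243*, *Myh9*, *Alkbh4* and *Tpst2* (0.968). For *Ccl5* they were *Chsy1* (0.990), *Lpin1*, *Prf1*, *Ctla2b* and *Klrc1* (0.986), and for *Xcr1* they were *Mycl* (0.974), *Cst3*, *Clec9a*, *Vdac2* and *Srsf9* (0.955). The receptor and its ligand had r = -0.53.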

How the data were processed

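Droplet single-cell RNA-seq (10x Genomics, 3′ ends) was analysed for 1 PEP-WT and 1 PEP-619WW sample, each with 2 deposited matrices of raw UMI counts per gene and barcode, made by the authors with Cell Ranger 6.0.0 per the labels and the mouse genome mm10. The study's methods name a later version of Cell Ranger. Of 32285 gene rows, 32158 had a symbol. The members and lists were chosen with earlier results of these data known.

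Gates were set on each barcode's own UMIs, with no clustering and no removal of doublets. UMIs were summed per gate and library and divided by the gate's total, times 1000000. Poisson, Clopper-Pearson and conditional binomial 95% intervals were exact and cover counting error only. With 1 library per genotype and run no test between genotypes was made, and neither p-values nor replicate errors are given. The floor for 0 was 3 UMIs. A gene counted as measured with at least 50 UMIs in both libraries together, and as lower or higher past 2-fold. Shares were also given after thinning to 1000 UMIs, without shallower barcodes. The named genes were the 5 members, the 5 genes most like each (at least 200 UMIs, pseudocount 1), list genes past 2-fold and gate or marker genes. The ratio script was tested on simulated data. The scripts ran in Python 3.11.15 with SciPy 1.17.1, NumPy 2.4.6 and pandas 2.3.3, and figures were drawn with Matplotlib 3.10.9.

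Alternatives were median-of-ratios scaling, totals without immunoglobulin, hemoglobin and mitochondrial genes, equal weight per barcode, thinning, removal of barcodes rich in *Mt2*, filtered barcodes, stricter gates, and run 2. Others, without the top barcode, without barcodes in another gate and without CD4 T barcodes that met the CD8 T gate or carried *Ncr1*, were chosen after seeing the data, as was the likeness over 10 profiles in place of 14 and the use of barcodes of the *Flt3* and *H2-Aa* gate alone as background. Both planned comparison gates, an alternative and a gene list need items that are not reported here.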

Additional observations from a re-analysis of the deposited data

Results flagged for a closer look

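The levels of *Ccl3* and *Ccl4* differed in direction between the T gates and the NK gate of run 1. The log2 ratio of PEP-619WW over PEP-WT for *Ccl3* was 0.33 (0.27 to 0.40) in the CD8 T gate and 0.46 (0.31 to 0.60) in the CD4 T gate, and -0.74 (-1.24 to -0.26) in the NK gate. For *Ccl4* it was 0.30 (0.26 to 0.35), 0.87 (0.75 to 0.99) and -1.17 (-1.496 to -0.86). With stricter gates the CD4 T values were -0.10 (-0.34 to 0.15) for *Ccl3* and 0.064 (-0.13 to 0.26) for *Ccl4*. Thinned to 1000 UMIs, *Ccl3* in the NK gate was at -0.73 with an interval that includes 0 (-1.75 to 0.18), and without the top barcode of each library *Ccl4* there was at -0.76. In run 2 every one of these ratios had the opposite sign. In the CD8 T, CD4 T and NK gates *Ccl3* was then at -1.69, -1.19 and 2.91, and *Ccl4* at -1.56, -1.28 and 2.39. The NK gate of run 2 had 2 PEP-WT barcodes. In the NK gate of run 1 the direction held for levels and not for shares of barcodes. The thinned shares in PEP-WT and PEP-619WW were 19.5% and 24.3% for *Ccl3* and 31.2% and 32.4% for *Ccl4*, with overlapping intervals. Each gate had 1 library per genotype, so the difference between the gates was not tested. The PEP-619WW NK gate of run 1 held 37 barcodes with neutrophil markers at 14983 CPM (UMIs per 1000000 UMIs), against 1152 in PEP-WT, and the part of these in the result was not tested.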

How the results depend on the processing

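Of 31 alternative values for *Xcl1* in the CD8 T, CD4 T and NK gates, 30 had the sign of the reported ratio. All except the run 2 values rest on the same run 1 UMIs, and the T gates share barcodes. *Xcl1* in the CD4 T gate was also the difference by which the genes were chosen, so nothing is read from this count. For *Xcl1* in the CD8 T gate (-2.10) the ratio was -1.49 with equal weight per barcode, -1.74 thinned, -1.84 without barcodes in another gate, -2.53 with stricter gates and -1.47 in run 2. In the CD4 T gate (-3.34) it was -2.12 without barcodes in another gate, -5.53 with stricter gates, -0.74 in run 2 and -1.85 without barcodes of the CD8 T gate or with *Ncr1*. Both ways of leaving out such barcodes were chosen after seeing the data. In the NK gate (-0.68) it was -0.11 with equal weight, -0.10 thinned and 2.88 in run 2. *Ccl3* in the CD8 T gate (0.33) gave 0.42 with equal weight, 0.51 thinned, 0.18 with stricter gates and -1.69 in run 2. *Ccl4* there (0.30) gave 0.22 without barcodes in another gate, 0.18 with stricter gates and -1.56 in run 2. *Ccl5* there (0.29) gave 0.34 both without immunoglobulin, hemoglobin and mitochondrial genes in the total and without *Mt2*-rich barcodes, 0.15 with equal weight, 0.14 thinned, 0.38 with stricter gates and 0.042 in run 2. *Xcr1* in the *Flt3* and *H2-Aa* gate (-1.59) gave -1.06 thinned (-3.13 to 0.64), -2.82 without barcodes in another gate and -0.46 in run 2. Among the other results, run 2 turned *Ccl3* (-1.19) and *Ccl4* (-1.28) in the CD4 T gate, *Ccl3* (2.91) and *Ccl4* (2.39) in the NK gate, *Xcl1* (0.056) and *Ccl5* (0.24) in the *Flt3* and *H2-Aa* gate, and *Xcl1* (4.19) and *Xcr1* (1.49) in the *Lyz2* gate. Stricter gates turned *Ccl3* in the CD4 T gate (-0.10), brought *Ccl4* (0.87) and *Ccl5* (0.82) there to 0.064 and 0.23, and turned *Ccl5* in the *Flt3* and *H2-Aa* gate (1.37). *Ccl4* in the *Lyz2* gate turned with equal weight (-0.21), thinned (-0.28), without barcodes in another gate (-0.21) and without the top barcode (-0.014), and *Xcr1* there was 0.0025 thinned. *Xcr1* in the CD8 T gate (-1.07) was at -0.34 with equal weight and -0.40 (-2.39 to 1.48) without barcodes in another gate. *Ccl4* in the *Flt3* and *H2-Aa* gate (-0.13, with an interval that includes 0) was at 1.14 in run 2, 0.39 with stricter gates and 0.49 without barcodes in another gate, and *Ccl5* in the *Lyz2* gate (-0.0018) at 0.37 thinned, 0.28 with equal weight, 0.24 without barcodes in another gate and 2.36 in run 2. *Ccl3* in the *Flt3* and *H2-Aa* gate (0.014, -0.34 to 0.37) was at 2.08 (0.94 to 3.54) in run 2 and 1.52 (-0.045 to 3.24) thinned. The cause was not tested. No paired analysis was possible because each genotype had 1 library per run. Run 2 had 28, 12 and 2 PEP-WT barcodes in the CD8 T, CD4 T and NK gates, and the CD4 T values without CD8 T barcodes rest on 29 and 6 UMIs.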
